A study of Mus musculus with 6 samples.

Results

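Mitogen-activated protein kinases (MAP kinases) and the kinases that activate them were described in mouse podocytes overexpressing the long non-coding RNA Dlx6-os1. The members were the 9 genes Mapk3, Mapk8, Mapk9, Mapk14, Map2k1, Map2k2, Map2k3, Map2k4 and Map2k7, chosen by name from a list of MAP kinases and MAP2 kinases and not by their values. They were 9 of the 11308 gene symbols in the deposited table, with 29 of its 21849 transcripts. RNA-seq of polyA RNA was done on 3 samples with Dlx6-os1 overexpression and 3 control samples of MPC5, an established podocyte line of the C57BL/6 strain, under normal glucose. The labels name a lentivirus carrying dlx6-os1, or without an insert for the controls, while the methods of the study name an adenovirus and normal controls. In the titles the controls are WT, and for control 3 the labels hold no genotype. Which vector the controls carried is therefore not settled. The methods of the study state in general that distinct samples were measured, from different animals or independent experiments. They do not say this of the RNA-seq samples in particular. The p-values thus measure the spread between these samples, which may be technical.

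MAP kinase signalling runs through a chain of kinases. A MAP3 kinase phosphorylates a MAP2 kinase, and the MAP2 kinase phosphorylates a threonine and a nearby tyrosine in the activation loop of the MAP kinase. The ERK arm answers mainly to growth factors, and the JNK and p38 arms mainly to stress and inflammatory cytokines, including in podocytes, the foot-process cells of the glomerular filter. Kinase activity depends on phosphorylation, which RNA levels do not measure.

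Mapk3 (ERK1) is the MAP kinase of the ERK arm here, Mapk8 (JNK1) and Mapk9 (JNK2) are those of the JNK arm, and Mapk14 (p38 alpha) is that of the p38 arm. The coding bases around the activation loop are shown because the middle codon sets these arms apart, with the codons of the phosphorylated threonine and tyrosine in capitals (GENCODE M21 transcripts on GRCm38, the assembly also called mm10).
Mapk3: ggctttctgACGgagTATgtggccaca
Mapk8: tttatgatgACGcctTATgtggtgact
Mapk9: tttatgatgACTcccTATgtggtaact
Mapk14: gatgagatgACAggcTACgtggctacc
The codon between the capitals is gag (glutamate) in Mapk3, cct or ccc (proline) in the pair of JNK genes and ggc (glycine) in Mapk14. The capitals are residues 203 and 205 of Mapk3, 183 and 185 of Mapk8 and Mapk9, and 180 and 182 of Mapk14.

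Map2k1 (MEK1) and Map2k2 (MEK2) activate ERK, Map2k4 (MKK4) and Map2k7 (MKK7) activate JNK, and Map2k3 (MKK3) activates p38. Map2k4 can also phosphorylate p38 and was counted in the JNK arm. The capitals below mark the codons of the activation-loop serine or threonine residues that MAP3 kinases phosphorylate.
Map2k1: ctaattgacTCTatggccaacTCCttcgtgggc
Map2k2: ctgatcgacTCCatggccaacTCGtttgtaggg
Map2k4: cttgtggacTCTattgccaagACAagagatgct
Map2k7: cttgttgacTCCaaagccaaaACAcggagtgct
Map2k3: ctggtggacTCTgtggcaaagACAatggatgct
The second capital codon encodes serine in the pair that activates ERK and threonine (ACA) in the other three. Over their aligned coding sequences, Map2k1 and Map2k2 were identical at 78.2% of bases and Mapk8 and Mapk9 at 75.1%, and every other pair of MAP kinases or of MAP2 kinases at 54.3% to 61.2%.

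Values are FPKM, mapped fragments scaled to transcript length and to the total of each sample, summed over the listed transcripts of a gene. FPKM is per length, so levels of different genes can be set side by side. Summed over all listed transcripts, the samples held 329402 to 371806 FPKM, and read depth is unknown. The study called a gene when its fold change exceeded 1.5 and its p was under 0.05. It does not say whether that p was adjusted, and the unadjusted p was used here. Markers of podocytes were only partly present: 9 of 16 were listed, and Nphs1, which encodes the slit-diaphragm protein nephrin, was not among them. Of the 9 listed podocyte markers, Kirrel and Plce1 were lower with Dlx6-os1 at the thresholds of the study. Kirrel passed under all 19 alternatives, and Plce1 no longer did without Dlx6-os1 replicate 3, control 1 or control 2, as TPM, with an ordinary linear model or with its most abundant transcript. Tubule markers had 3 of 9 listed (Lrp2, Aqp1 and Cdh16), all of them lower at those thresholds (only Cdh16 also without any 1 sample), with summed levels of 103 to 282 FPKM in Dlx6-os1 samples and 337 to 532 FPKM in control samples. Endothelial markers had 0 of 5 listed and leukocyte markers 1 of 5 (Cd68). The smooth-muscle actin gene Acta2 stood at 86.7 FPKM in control 3 and at 4.74 to 7.19 FPKM in the other 5 samples. The part of these differences in the results below was not tested, and in bulk samples fewer cells of a type and less RNA per cell cannot be told apart.

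All 9 members were present in all 6 samples. By mean over the 6 samples the order of levels was Mapk3 (77.1 FPKM), Map2k1 (38.6 FPKM), Map2k2 (27.2 FPKM), Mapk14 (23.2 FPKM), Map2k4 (22.2 FPKM), Map2k3 (13.9 FPKM), Mapk8 (10.2 FPKM), Map2k7 (7.24 FPKM) and Mapk9 (5.26 FPKM). The ranges over samples did not overlap between Mapk3 and Map2k1 or between Map2k1 and Map2k2, whereas each later pair of neighbours overlapped. The genes differed in how much they varied from sample to sample. The coefficient of variation over the 6 samples was 53.0% for Map2k7, 42.9% for Mapk14, 41.7% for Map2k3 and 26.98% for Mapk8, and 12.2% to 14.7% for the other 5 genes.

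**Figure D1:**
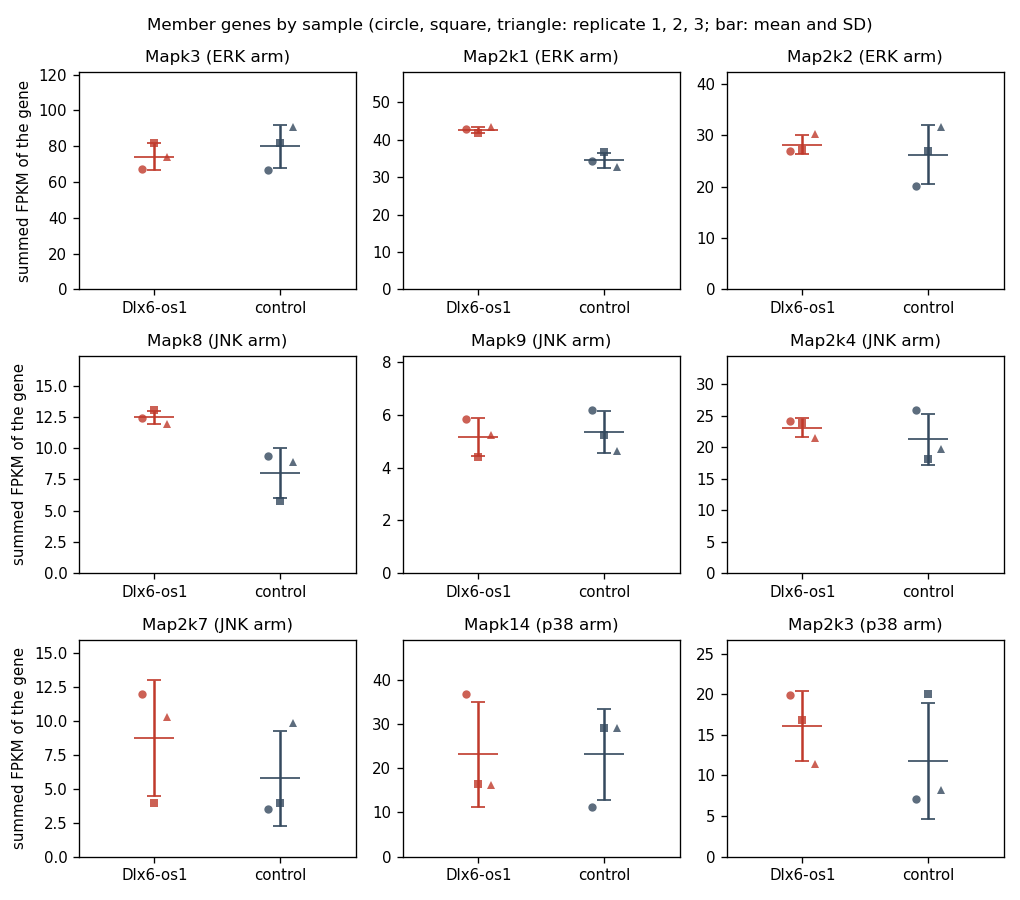
Summed FPKM of each member gene (vertical axis, from 0) in 3 Dlx6-os1 samples (red, left) and 3 control samples (dark, right), with replicates 1, 2 and 3 as circle, square and triangle and bars for mean and SD. The groups do not overlap for Map2k1 and Mapk8, while Map2k7, Mapk14 and Map2k3 show the widest scatter within groups.

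Most members differed between the groups by less than the spread between samples. At the thresholds of the study, with folds on the log2(FPKM + 1) scale, which understates changes of low genes, 1 of 9 members, Mapk8, was higher, where 2.49% of all genes were, and 0 were lower, where 2.23% of all genes were. In limma, 2 members (Mapk8 and Map2k1) had an unadjusted p under 0.05, as did 9.16% of all genes, and 0 had an adjusted p under 0.05, as did 0.0354% of all genes (4 genes), the smallest adjusted p of a member being 0.481. For these 2 members every Dlx6-os1 sample was above every control sample, which held for 10.1% of all genes, and for 0 members was every Dlx6-os1 sample below, which held for 6.24%. The log2 change was above 0 for 7 of 9 members and for 54.2% of all genes, with a median of 0.13 over the members and 0.03 over all genes.

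**Figure D2:**
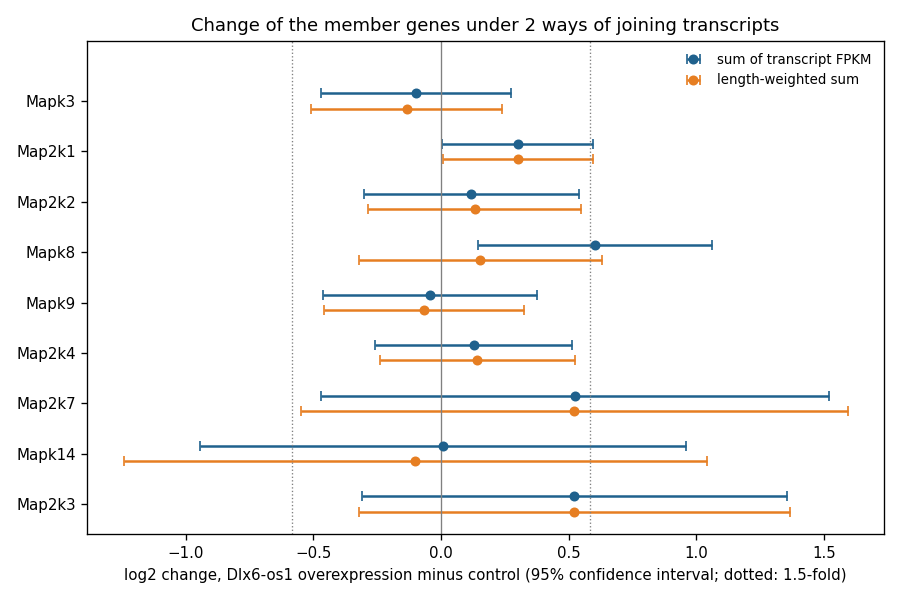
Log2 change of each member (horizontal axis, Dlx6-os1 overexpression minus control) with its 95% confidence interval from limma, from summed FPKM (blue) and from sums weighted by transcript length (orange). The interval of Mapk8 lies above 0 for summed FPKM (0.60) and includes 0 for the length-weighted sum (0.15), while Map2k1, with 1 listed transcript, stays at 0.30.

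In the ERK arm, Map2k1 differed between the groups by a small amount and Mapk3 and Map2k2 did not differ beyond their spread. Map2k1 (chr9:64185770-64253631, minus strand) had 42.8, 41.9 and 43.5 FPKM in Dlx6-os1 samples, against 34.2, 36.7 and 32.6 FPKM in control samples. The lowest Dlx6-os1 sample was thus above the highest control, with means of 42.7 ± 0.832 FPKM and 34.5 ± 2.04 FPKM (SD, n = 3 each). The log2 change was 0.30 (SE 0.13, 95% confidence interval 0.0056 to 0.60, limma adjusted p = 0.539), below a 1.5-fold change. Over the 19 alternatives that were run, it lay between 0.26 and 0.35, with the unadjusted p under 0.05 in 11 of them and adjusted p-values of 0.291 to 0.905. Not all of these could differ from the first fit. The filter removed no gene, and ratios of group means kept the limma p. Map2k1 has 1 listed transcript, so choosing or weighting transcripts left its log2 change at 0.30.

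Map2k2 (chr10:81105915-81124697, plus strand), its close relative, had 26.97, 27.1 and 30.3 FPKM in Dlx6-os1 samples and 20.1, 26.8 and 31.7 FPKM in control samples. The groups overlapped, control 1 being the lowest sample and control 3 the highest, and the log2 change was 0.12 (SE 0.18, adjusted p = 0.888). Summed over both activators, Dlx6-os1 samples had 69.7, 69.0 and 73.8 FPKM and control samples 54.3, 63.5 and 64.3 FPKM, without overlap. The log2 ratio of Map2k1 to Map2k2 within a sample was 0.18 higher with Dlx6-os1 (exact permutation test, two-sided, p = 0.6, adjusted p = 0.7 over 3 ratios, where 3 against 3 samples cannot give a p below 0.1). This difference was 0.00083 without control 3 and 0.35 without control 1.

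Mapk3 (chr7:126759601-126765819, plus strand), the most abundant member, had 67.1, 81.7 and 74.0 FPKM in Dlx6-os1 samples and 66.9, 81.9 and 91.0 FPKM in control samples. The groups overlapped, with a log2 change of -0.10 (SE 0.16, 95% confidence interval -0.47 to 0.27, adjusted p = 0.899). Its gene sum was steady while the values of its 2 main transcripts were not. Mapk3-002, which begins downstream of the start of Mapk3-001 and has 795 coding bases against 1140, held 61.0, 73.0 and 62.5 FPKM in Dlx6-os1 samples and 58.8, 2.39 and 81.8 FPKM in control samples. Mapk3-001 held 4.79, 4.60 and 8.70 FPKM in Dlx6-os1 samples and 7.55, 79.2 and 7.32 FPKM in control samples. Control 2 alone carried nearly all of its Mapk3 signal (96.7%) in Mapk3-001, against 5.63% to 11.8% in the other 5 samples.

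The ERK arm as a whole held 136.8, 150.7 and 147.8 FPKM in Dlx6-os1 samples and 121.3, 145.5 and 155.2 FPKM in control samples. These values overlapped, and the log2 ratio of the group means was 0.04, with -0.051 without control 1 and 0.12 without control 3.

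In the JNK arm, Mapk8 was higher with Dlx6-os1 in summed FPKM, and this difference lay in its shortest listed transcript. Mapk8 (chr14:33377898-33447158, minus strand) had 12.4, 13.0 and 11.98 FPKM in Dlx6-os1 samples, against 9.38, 5.75 and 8.93 FPKM in control samples. Control 2 was the lowest, and the groups did not overlap. The means were 12.5 ± 0.535 FPKM and 8.02 ± 1.98 FPKM (SD, n = 3 each), a log2 change of 0.60 (SE 0.20, 95% confidence interval 0.15 to 1.06, limma adjusted p = 0.481). This was just past the 1.5-fold threshold of 0.58 on the log2 scale, and it no longer passed without Dlx6-os1 replicate 2 (0.57) or without control 2 (0.41).

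Transcripts of Mapk8 and Mapk9 carry either of a pair of alternative 72-base exons in the kinase domain, and the 2 forms of the protein differ in substrate preference. Both Mapk8 exons are shown because they tell Mapk8-001 from Mapk8-002 and Mapk8-004. The latter transcripts share the downstream exon and cannot be told apart by it. Capitals mark the 27 bases at which they differ. The upstream exon lies at chr14:33390673-33390744 and the downstream exon at chr14:33390242-33390313, both read on the minus strand of GRCm38.
Upstream exon, in Mapk8-001: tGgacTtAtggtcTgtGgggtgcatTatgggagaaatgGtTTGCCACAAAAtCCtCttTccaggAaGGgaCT
Downstream exon, in Mapk8-002 and Mapk8-004: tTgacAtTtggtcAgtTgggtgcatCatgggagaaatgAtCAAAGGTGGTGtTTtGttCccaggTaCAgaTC

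Mapk8-004 (1310 bases) had 7.32, 7.61 and 8.31 FPKM in Dlx6-os1 samples, against 0.987, 0.666 and 5.78 FPKM in control samples. Control 3 was close to the Dlx6-os1 samples and the other two controls were near 1. The log2 change was 1.63 (SE 0.53, 95% confidence interval 0.35 to 2.91, limma adjusted p = 0.643 over all transcripts). It passed the thresholds without control 3 (2.26) and without Dlx6-os1 replicate 1 (1.67), and no longer did without Dlx6-os1 replicate 2 (1.64) or 3 (1.59) or without control 1 (1.38) or 2 (1.25), where the unadjusted p was above 0.05, with adjusted p-values of 0.113 to 0.879 over all alternatives run on transcripts.

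The longer transcripts were not higher. Mapk8-001 (5756 bases) had 3.37, 2.22 and 2.36 FPKM in Dlx6-os1 samples and 4.37, 3.30 and 2.08 FPKM in control samples, a log2 change of -0.20 (SE 0.28). Mapk8-002 (2587 bases) had 1.72, 3.21 and 1.30 FPKM in Dlx6-os1 samples and 4.03, 1.78 and 1.07 FPKM in control samples, a log2 change of -0.05 (SE 0.40). The groups overlapped for both. The downstream exon thus took 72.9%, 83.0% and 80.3% of Mapk8 FPKM in Dlx6-os1 samples and 53.4%, 42.6% and 76.8% in control samples, where control 3 overlapped the Dlx6-os1 samples.

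Because FPKM is per length, a fragment assigned to a short transcript counts for more in a gene sum than one assigned to a long transcript. When the FPKM of each transcript was multiplied by its length in kilobases, which is proportional to its fragments, Mapk8 had 33.4, 31.1 and 27.8 length-scaled units in Dlx6-os1 samples and 36.9, 24.5 and 22.3 in control samples. Control 1 was then the highest sample and the groups overlapped. On this length-weighted scale the log2 change of Mapk8 was 0.15 (SE 0.21, 95% confidence interval -0.32 to 0.63, limma adjusted p = 0.872, against 0.228 to 0.872 over all 19 alternatives), so the call ended. The other 8 members kept the call they had.

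**Figure D3:**
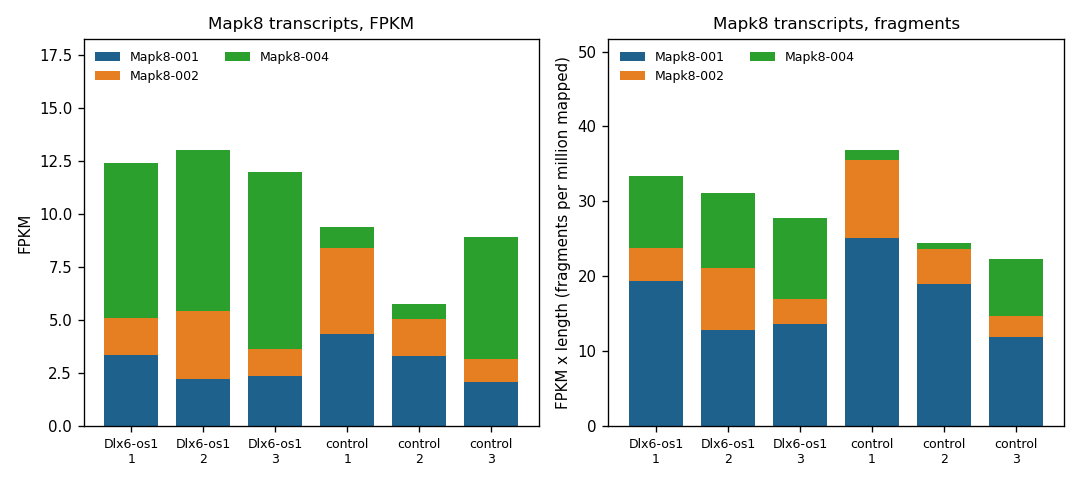
Mapk8 transcripts in each of the 3 Dlx6-os1 samples (left bars) and 3 control samples (right bars), stacked as FPKM (left panel) and as FPKM times length in kilobases (right panel). Mapk8-004 (green) is 7.32 to 8.31 FPKM in Dlx6-os1 samples and 0.666 to 5.78 FPKM in controls, and the totals separate the groups in FPKM but not after multiplication by length.

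Mapk9 (chr11:49846751-49886421, plus strand) had 5.85, 4.42 and 5.25 FPKM in Dlx6-os1 samples and 6.18, 5.25 and 4.63 FPKM in control samples. The groups overlapped, with a log2 change of -0.04 (SE 0.18, adjusted p = 0.960). The log2 ratio of Mapk8 to Mapk9 was 0.97, 1.37 and 1.05 in Dlx6-os1 samples and 0.53, 0.11 and 0.82 in control samples. Its difference of 0.65 came without overlap, with an exact permutation p of 0.1 (two-sided, adjusted p = 0.3 over 3 ratios), the smallest that 3 against 3 samples can give. With length-weighted sums the ratios overlapped, at 0.88, 0.92 and 0.61 in Dlx6-os1 samples and 0.83, 0.43 and 0.50 in control samples, a difference of 0.22 (exact permutation p = 0.2).

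Neither activator of JNK differed beyond its spread. Map2k4 (chr11:65688243-65788297, minus strand) had 24.2, 23.8 and 21.4 FPKM in Dlx6-os1 samples and 25.9, 18.1 and 19.8 FPKM in control samples, a log2 change of 0.13 (SE 0.17, adjusted p = 0.864). Map2k7 (chr8:4238740-4247897, plus strand) had 11.98, 3.93 and 10.3 FPKM in Dlx6-os1 samples and 3.51, 3.97 and 9.80 FPKM in control samples. Dlx6-os1 replicate 2 sat with the low controls and control 3 with the high Dlx6-os1 samples. Its log2 change of 0.53 (SE 0.43, 95% confidence interval -0.47 to 1.52, adjusted p = 0.754) passed the thresholds of the study without Dlx6-os1 replicate 2 (0.96) or without control 3 (0.92). The log2 ratio of Map2k4 to Map2k7 differed by -0.40 (exact permutation test, two-sided, p = 0.7, adjusted p = 0.7 over 3 ratios). Leaving out 1 sample moved this difference between -0.85 (without Dlx6-os1 replicate 2) and -0.020 (without control 1).

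Summed over its 4 genes, the JNK arm held 54.4, 45.2 and 48.9 FPKM in Dlx6-os1 samples and 45.0, 33.1 and 43.2 FPKM in control samples. The groups were separated narrowly, by Dlx6-os1 replicate 2 and control 1, and the log2 ratio of the group means was 0.29, with 0.17 without control 2. The pair of JNK genes alone had 18.3, 17.5 and 17.2 FPKM in Dlx6-os1 samples and 15.6, 11.0 and 13.6 FPKM in control samples. With sums weighted by length, the log2 ratio of the JNK arm was 0.17 and the groups overlapped, for the arm and for the pair of JNK genes.

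In the p38 arm the samples of each group were far apart, and neither gene passed the thresholds. Mapk14 (chr17:28691342-28748404, plus strand) had 36.9, 16.5 and 16.1 FPKM in Dlx6-os1 samples and 11.3, 29.2 and 29.1 FPKM in control samples. Dlx6-os1 replicate 1 and control 1 lay at opposite ends, each away from its own group. The log2 change was 0.01 (SE 0.42, 95% confidence interval -0.95 to 0.96, adjusted p = 0.997), an interval that includes a 1.5-fold change in either direction. It was -0.37 without Dlx6-os1 replicate 1 and -0.42 without control 1.

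Most of this scatter lay in Mapk14-002, a full-length transcript of 3548 bases with 27.6, 6.36 and 2.82 FPKM in Dlx6-os1 samples and 0.356, 23.6 and 23.7 FPKM in control samples. Mapk14-005, which has a later start and shares its alternative 80-base exon, had 1.15, 0 and 6.76 FPKM in Dlx6-os1 samples and 6.28, 0.390 and 0 FPKM in control samples. The 2 samples lowest in Mapk14-002 were the highest in Mapk14-005. Mapk14-004, a shorter form of 1478 bases, had 1.20, 3.85 and 2.14 FPKM in Dlx6-os1 samples, against 0.932, 0.243 and 0.261 FPKM in control samples. The groups did not overlap, and its log2 change was 1.16 (SE 0.35, limma adjusted p = 0.643), and it no longer passed without control 2 or without control 3. Mapk8-004 and Mapk14-004 were the 2 of 29 member transcripts past the thresholds, both higher, and 0 were lower, where 3.07% of all transcripts were higher and 2.51% lower. The count was 4 without Dlx6-os1 replicate 1, with Mapk3-006 and Mapk14-006 added, and 1 without Dlx6-os1 replicate 3 or without any 1 of the controls. That 1 was Mapk14-004 without Dlx6-os1 replicate 3 or control 1, Map2k3-001 without control 2 and Mapk8-004 without control 3. Without Dlx6-os1 replicate 2 the 2 were Mapk14-004 and Map2k7-003. Transcripts with a mean under 0.5 FPKM in both groups were absent from the deposited values. Mapk14-004 (control mean 0.479 FPKM), Mapk3-006 (0.219 FPKM) and Mapk14-006 (0.205 FPKM) were listed only through their Dlx6-os1 means. The same held for Map2k7-003 (0.499 FPKM), Map2k2-007 (0.488 FPKM) and Mapk9-203 (0.385 FPKM). Being higher with Dlx6-os1 was thus a condition of their being listed. Mapk3-003 (Dlx6-os1 mean 0.474 FPKM) was listed only through its control mean. All these transcripts also enter the gene and arm sums.

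**Figure D4:**
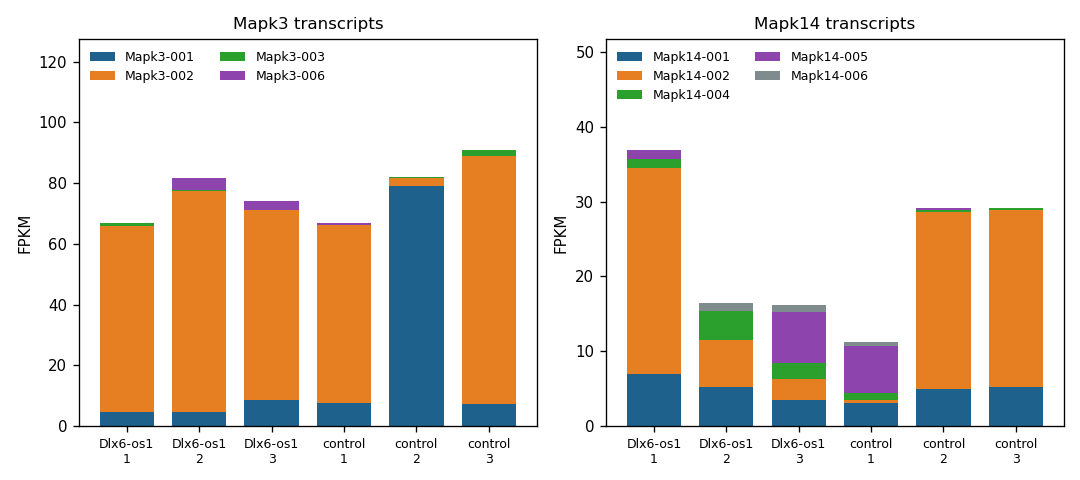
FPKM of the listed transcripts of Mapk3 (left panel) and Mapk14 (right panel), stacked for each of the 3 Dlx6-os1 samples (left bars) and 3 control samples (right bars). Mapk3-001 is 79.2 FPKM in control 2 and at most 8.70 FPKM elsewhere, and Mapk14-002 spans 0.356 to 27.6 FPKM.

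Map2k3 (chr11:60932033-60952811, plus strand) had 19.9, 16.9 and 11.4 FPKM in Dlx6-os1 samples and 7.09, 20.1 and 8.18 FPKM in control samples. Control 2 was the highest of all 6 samples and the other two controls were the lowest. The log2 change was 0.52 (SE 0.36, 95% confidence interval -0.31 to 1.36, adjusted p = 0.696), and without control 2 it was 0.95 and passed the thresholds. The p38 arm held 56.8, 33.4 and 27.6 FPKM in Dlx6-os1 samples and 18.4, 49.3 and 37.3 FPKM in control samples, overlapping, with a log2 ratio of group means of 0.17 that was -0.20 without Dlx6-os1 replicate 1 and -0.14 without control 1. Map2k6 (MKK6), the other activator of p38 and no member, had 2.26, 2.93 and 2.65 FPKM in Dlx6-os1 samples and 3.30, 2.72 and 2.72 FPKM in control samples.

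The rest of the pathway moved little. Of 124 symbols in 10 lists of other pathway genes, 105 were listed in the table, of which 1 was higher and 1 lower at the thresholds of the study (0.952% each, against 2.49% and 2.23% of all genes) and 103 passed in neither direction. Their median log2 change was -0.01, and 0 had an adjusted p under 0.05 in limma. The MAP3 kinases of the ERK arm (4 listed), those of the JNK and p38 arms (19), the Ras proteins and their activators (12), the MAP4 kinases and small G proteins (12), the scaffolds (14), the kinases activated by MAP kinases (10), the transcription factors they phosphorylate (12) and the other MAP kinases (7) and MAP2 kinases (2) had 0 past the thresholds.

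Among these, the small G proteins Cdc42 and Rac1, which act upstream of JNK, were separated in opposite directions. They are named as the 2 most abundant of their list, and other genes of these lists changed more on the log2 scale. In the list of 12 MAP4 kinases and small G proteins, 2 were separated upward and 1 downward, against 10.1% and 6.24% of all genes. Cdc42, the more abundant, had 143, 137 and 138 FPKM in Dlx6-os1 samples and 166, 151 and 168 FPKM in control samples, a log2 change of -0.21 (SE 0.14). Rac1 had 128, 136 and 130 FPKM in Dlx6-os1 samples and 120, 115 and 124 FPKM in control samples, a log2 change of 0.14 (SE 0.13). Mapkapk2 (MK2), a kinase activated by p38, had 74.0, 81.2 and 84.0 FPKM in Dlx6-os1 samples and 64.0, 88.6 and 95.8 FPKM in control samples. The groups overlapped for Mapkapk2, and none of these 3 genes passed the thresholds.

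Both genes past the thresholds were phosphatases that act on MAP kinases (13 listed). Dusp6, which dephosphorylates ERK and is itself induced by ERK signalling, had 14.4, 14.8 and 8.03 FPKM in Dlx6-os1 samples, against 21.9, 20.9 and 15.9 FPKM in control samples. Every Dlx6-os1 sample was below every control, and it fell by 0.65 on the log2 scale (SE 0.25, limma adjusted p = 0.507). Dusp6 no longer passed without Dlx6-os1 replicate 3 (-0.39), without control 1 (-0.57) or without control 2 (-0.60), as TPM (-0.67) or with an ordinary linear model (-0.65). Ptpn7, a tyrosine phosphatase that binds ERK and p38, had 1.35, 2.19 and 2.34 FPKM in Dlx6-os1 samples, against 0.777, 0.860 and 1.19 FPKM in control samples. It was higher by 0.60 on the log2 scale (SE 0.20, limma adjusted p = 0.481), from a low level. Ptpn7 no longer passed without Dlx6-os1 replicate 2 (0.53) or 3 (0.50), without control 1 (0.54) or 2 (0.57), with median-centring (0.56) or with length-weighted sums (0.44), and its most abundant transcript was at -0.14. Ppm1a, the most abundant of the 13, had 44.0, 45.4 and 47.6 FPKM in Dlx6-os1 samples and 40.6, 37.6 and 32.4 FPKM in control samples and did not pass (log2 change 0.31, SE 0.14).

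**Figure D5:**
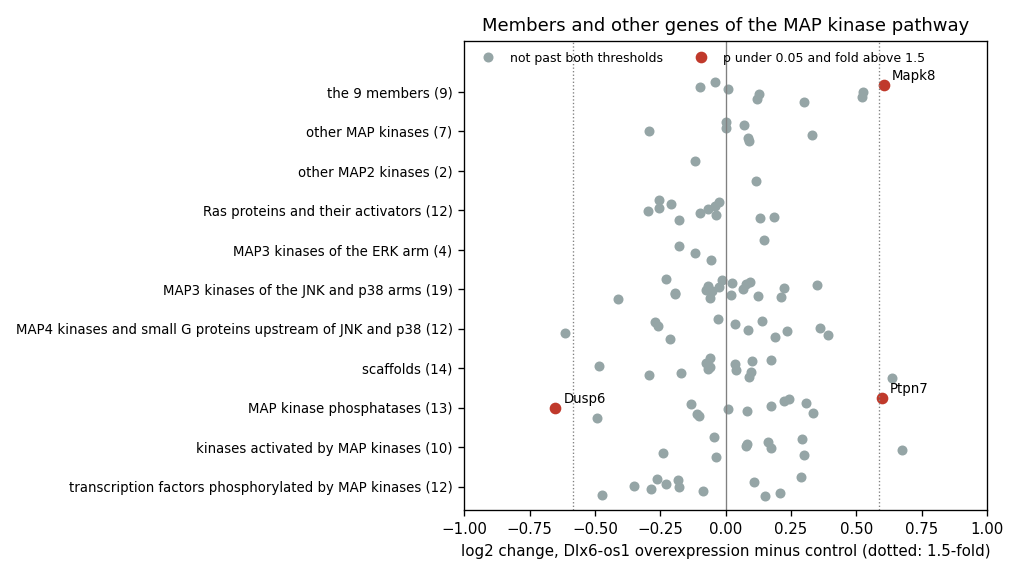
Log2 change (horizontal axis, Dlx6-os1 overexpression minus control) of the 9 members and of 105 other pathway genes, one point per gene, grouped by list with the number listed in parentheses. Mapk8 (0.60), Ptpn7 (0.60) and Dusp6 (-0.65) are the 3 genes past both thresholds, in red, and dotted lines mark a 1.5-fold change.

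The genes whose pattern over the 6 samples was most like that of Mapk8, by root mean square difference of log2(FPKM + 1) centred on each gene, were Kif23 (0.065), Rbbp7 (0.073) and Nuf2 (0.080). Kif23 encodes a kinesin of cytokinesis, Rbbp7 a histone-binding protein and Nuf2 a kinetochore protein. Kif23 had 32.8, 31.6 and 33.3 FPKM in Dlx6-os1 samples and 25.3, 16.7 and 23.0 FPKM in control samples, with control 2 lowest as for Mapk8. This likeness is a description over 6 samples of summed FPKM, which for Mapk8 changed with the weighting by length.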

How the data were processed

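RNA-seq of 6 samples (3 per group, assigned from their labels) was used, with each table column matched by its sample description, and 0 sample columns were left out. The authors deposited FPKM of 21849 transcripts (fragments per kilobase and per total mapped). The submitters' processing notes name FastQC, HISAT2, StringTie and mm10. They do not name the annotation release (not given in the sources used here). Since the smallest larger group mean was 0.5001, lower transcripts had been removed. Depth is unknown: of 200 low values per sample, 27% to 32% were whole multiples (within 0.1) of the best of 400 steps tried, against 20% for evenly spread values.

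FPKM were summed per gene symbol, a filter at a mean of 0.5 removed none, and log2(FPKM + 1) was compared with limma 3.58.1 in R 4.3.3 (mean-variance trend, two-sided, Benjamini-Hochberg over all genes or all transcripts), tested on simulated data. The thresholds (p under 0.05, fold above 1.5) are those of the study, whose methods name no test for RNA-seq. Paralog ratios used exact permutation (SciPy 1.17.1). Coding sequences were aligned with Biopython 1.88. Lengths and models came from GENCODE M21 (99.6% of transcripts, 29 of 29 of the members'). The older transcript names and the M21 models share identifiers.

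All members, pathway genes past the thresholds or among the 2 most abundant of a list, and the 3 genes most like Mapk8 could be named. Members and lists were chosen with earlier results of these data known. Each gene result was recomputed with a pseudocount of 0.1 or 0.5, without the filter, with a filter at 1, as TPM, with quantile normalization, median-centring, a replicate block, limma without trend, an ordinary linear model, ratios of group means (keeping the limma p), the most abundant transcript and leaving out each sample. Member transcripts were rerun with both pseudocounts, the replicate block and leaving out each sample. Arm sums were rerun as TPM and leaving out each sample, and paralog ratios with a pseudocount of 0.1 and leaving out each sample. Weighting by transcript length was added for genes, arm sums and paralog ratios after seeing the data.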

Additional observations from a re-analysis of the deposited data

How the results depend on the processing

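Of 282 higher and 252 lower genes at the thresholds, an ordinary linear model left 145 and 103, and leaving out 1 sample gave 203 to 407 higher and 181 to 382 lower. The 4 genes at an adjusted p under 0.05 became 0 with the ordinary linear model, 7 with the most abundant transcript and 0 to 8 without 1 sample. The count of members past the thresholds (1) was 0 with quantile normalization, median-centring or length-weighted sums, and 1 to 2 without 1 sample, the 2 without control 3. Mapk8 had a log2 change of 0.57 with quantile normalization, 0.57 with median-centring, 0.15 with length-weighted sums and 0.41 to 0.72 without 1 sample. The 2 member transcripts past the thresholds became 1 to 4 without 1 sample, and not always the same ones.

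Direction turned for members near 0. Mapk3 was at 1.37 with the most abundant transcript, Map2k2 ranged from -0.052 to 0.26 without 1 sample and Mapk9 from -0.13 to 0.050. Mapk14 was at -0.030 with median-centring, -0.0020 with ratios of group means, -0.0094 with the most abundant transcript, -0.10 with length-weighted sums and -0.42 to 0.22 without 1 sample. The cause of these changes was not tested, beyond the length weighting itself.

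Whether replicate numbers pair the samples is not settled. Deviations from the group means correlated at 0.29, 0.024 and 0.29 for same-numbered samples 1, 2 and 3. Between samples of different number they correlated at -0.31 to 0.11, and Dlx6-os1 replicate 2 correlated best with control 1 (0.11). With the number as a replicate block, 10 genes had an adjusted p under 0.05 in limma, against 4 without it, and the calls of the members were unchanged. Unknown depth limits what can be said of low values, and 3 samples per group limit every comparison.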
